A study of Mus musculus with 27 samples.

Results

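Hepatocytes of the mouse strains C57BL/6J and PWK/PhJ were compared for DNA methylation at single CpG positions, over tiles of 1 kb and around genes. C57BL/6J is the laboratory strain on which the mouse reference genome is based, and PWK/PhJ is an inbred strain derived from wild Mus musculus musculus mice. The comparison rests on 6 of the 27 samples of a survey of 9 inbred strains, 3 samples of each strain. All were hepatocytes taken from the liver of female mice aged 12 weeks, per the labels, which call the samples of a strain biological replicates and name no treatment, no transgene and no pooling. The C57BL/6J samples carry the replicate numbers 1, 2 and 4 and the PWK/PhJ samples 1, 2 and 3. The pair was chosen by measured methylation values: it had the most differing positions among the strain pairs at the positions listed in all 27 samples. Differences at those positions, and counts of features past a threshold that include them, are therefore given as a description. An adjusted p of a single tile or window is printed only where it was made entirely of positions that were not used for the choice.

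Methylation of cytosine in CpG dinucleotides is copied at cell division and is found over most of a mammalian genome. CpG-rich gene starts are usually free of it, and methylation of such a start goes with a silent gene. Imprinted genes carry it on the copy from one parent, which gives intermediate levels, and in females the inactive X chromosome carries it at many CpG-rich starts. The assay, reduced representation bisulfite sequencing, reads fragments cut at CCGG by the enzyme MspI after bisulfite has converted unmethylated cytosine. It therefore covers mainly CpG-rich sequence. A methylation level below is the percent of reads at a position that were read as methylated, as the authors deposited it. The files give no read counts, and the depth of the values is therefore unknown.

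In these samples 4169742 positions were listed at least once and 2103652 (50.5%) in all 6. Of the latter, 1692477 were listed in all 27 samples of the survey and 411175 were not. The second set was not used to choose the pair. The samples listed 3006012 ± 80936 positions in C57BL/6J and 3043954 ± 35348 in PWK/PhJ (SD, n = 3 each), and the strains overlapped. The C57BL/6J samples were less alike than the PWK/PhJ samples. The correlation across positions listed in all 6 was 0.934 to 0.944 between C57BL/6J samples, 0.956 to 0.960 between PWK/PhJ samples and 0.930 to 0.945 between samples of the 2 strains. Over the same positions, the 3 samples spanned at least 50 points at 4.64% of positions in C57BL/6J and 2.59% in PWK/PhJ. Exact values of 0% took up 53.4% ± 1.73 of positions in C57BL/6J and 48.2% ± 0.925 in PWK/PhJ, and exact values of 100% took up 18.8% ± 1.85 and 15.9% ± 0.952 (SD, n = 3). A position read few times can take only a few values, so these shares bear on depth as well as on methylation, and the 2 cannot be told apart here. The mitochondrial chromosome is named M in the C57BL/6J files and MT in the PWK/PhJ files, and any difference in processing behind this cannot be told apart from strain.

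The starts of Mvk, Trim7, Lxn and B3galt4 are shown because they hold differing positions within the stretch of sequence printed here. Mvk encodes mevalonate kinase of cholesterol synthesis, Trim7 a ubiquitin ligase, Lxn the carboxypeptidase inhibitor latexin and B3galt4 a galactosyltransferase of ganglioside synthesis. Each line gives 250 bases before the start and the first 30 bases of the transcript, 5′ to 3′ on the strand of the gene, from the RefSeq promoter table of build GRCm38.p6. Capitals mark CpGs with a position whose strain means were at least 25 points apart in the direction of the gene's window.
Mvk: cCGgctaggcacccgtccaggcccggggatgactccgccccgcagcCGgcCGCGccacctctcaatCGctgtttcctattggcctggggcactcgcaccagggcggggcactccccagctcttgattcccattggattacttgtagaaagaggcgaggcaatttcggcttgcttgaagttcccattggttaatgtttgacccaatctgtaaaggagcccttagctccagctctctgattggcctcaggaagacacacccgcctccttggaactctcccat
Trim7: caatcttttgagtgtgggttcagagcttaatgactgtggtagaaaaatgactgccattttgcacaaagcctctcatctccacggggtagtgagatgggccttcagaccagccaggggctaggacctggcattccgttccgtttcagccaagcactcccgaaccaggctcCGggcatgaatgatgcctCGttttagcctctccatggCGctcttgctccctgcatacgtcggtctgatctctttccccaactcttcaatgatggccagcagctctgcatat
Lxn: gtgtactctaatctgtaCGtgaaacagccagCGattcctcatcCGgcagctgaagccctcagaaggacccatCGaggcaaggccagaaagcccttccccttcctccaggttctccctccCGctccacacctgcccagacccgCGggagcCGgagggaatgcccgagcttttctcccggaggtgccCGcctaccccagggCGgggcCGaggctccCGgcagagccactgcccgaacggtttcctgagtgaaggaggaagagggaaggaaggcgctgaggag
B3galt4: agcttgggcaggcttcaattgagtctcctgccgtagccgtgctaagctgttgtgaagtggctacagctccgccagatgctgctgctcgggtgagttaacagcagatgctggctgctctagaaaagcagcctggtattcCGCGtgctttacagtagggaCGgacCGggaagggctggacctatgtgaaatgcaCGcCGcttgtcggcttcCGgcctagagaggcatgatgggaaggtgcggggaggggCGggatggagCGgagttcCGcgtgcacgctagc

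The Mvk sequence lies at chr5:114444019-114444298 on the plus strand. It holds 14 CpGs, of which 6 were measured in all 6 samples and 5 differed, all far upstream of the start, with a mean over the measured positions of 0% in C57BL/6J and 41.9% in PWK/PhJ. The Trim7 sequence at chr11:48825888-48826167, plus strand, holds 9 CpGs, and the 3 measured ones all differed, with 1.48% in C57BL/6J and 77.1% in PWK/PhJ. In Lxn, at chr3:67463878-67464157 on the minus strand, 11 of 12 measured CpGs were lower in PWK/PhJ by 25 points or more, with means of 51.6% and 12.1%. In B3galt4, at chr17:33951459-33951738 on the minus strand, 10 of 11 measured CpGs were lower, with 60.8% in C57BL/6J and 8.12% in PWK/PhJ. Only CpGs that differed in the direction of the gene's window were marked, which was up in Mvk and Trim7 and down in Lxn and B3galt4.

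The mean level over the positions listed in all 6 samples was higher in PWK/PhJ, by little. It was 33.8% ± 0.122 in C57BL/6J and 35.0% ± 0.109 in PWK/PhJ (SD, n = 3), a difference of 1.16 points with no overlap between the strains. At the positions not used for the choice it was 60.3% ± 0.172 and 61.6% ± 0.127 (SD, n = 3), also with no overlap (exact two-sided permutation test, p = 0.1, the smallest p that 3 samples against 3 allow). Over every position that each sample lists, the difference was 0.798 points. On the X chromosome the mean was 50.1% ± 0.126 in C57BL/6J and 49.7% ± 0.453 in PWK/PhJ (SD, n = 3), and the strains overlapped.

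The difference lay mainly in tiles of intermediate level. Over tiles whose mean was 20 to 80%, the level was 54.6% ± 0.630 in C57BL/6J and 59.2% ± 0.397 in PWK/PhJ (SD, n = 3). Below 20% the means were 2.92% ± 0.120 and 3.99% ± 0.118, and above 80% they were 91.1% ± 0.0748 and 91.8% ± 0.129. Classes of the strain means moved in the same direction. Of the positions, 119560 were in a higher class (below 20%, 20 to 80%, above 80%) in PWK/PhJ than in C57BL/6J and 69577 in a lower one. From 20 to 80% in C57BL/6J to above 80% in PWK/PhJ went 77889 positions, and 49594 went the other way. From below 20% to 20 to 80% went 39912 positions, and 18275 the other way. A change across both limits was rare, with 1759 positions going up and 1708 down.

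Tiles of 1 kb with at least 5 positions listed in all 6 samples were tested with limma on log2((percent + 5)/(100 - percent + 5)). Called features had strain means at least 25 points apart and a p under 0.05 after Benjamini-Hochberg adjustment. Of 67849 tiles tested, 1492 (2.2%) were called, 1060 (1.56%) higher in PWK/PhJ and 432 (0.637%) lower. Higher tiles were thus 71.0% of those called, and over all tested tiles PWK/PhJ was the higher strain in 62.5%. In every called tile all samples of one strain lay above all samples of the other. The same separation with means 25 points apart and no test was found in 1748 tiles (2.58%), of which 71.4% were higher in PWK/PhJ. The median rise was 34.2 points and the median fall 35.4 points. A difference of at least 50 points was found in 237 called tiles, 166 higher and 71 lower. Just inside the limit, 442 called tiles were 25 to 30 points apart, and just outside it 609 tiles with an adjusted p under 0.05 were 20 to 25 points apart. Leaving out any single sample left 920 to 1284 called tiles, with 67.8 to 71.6% of them higher in PWK/PhJ. Without PWK/PhJ replicate 2 the count was 920 and without PWK/PhJ replicate 1 it was 984.

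**Figure D1:**
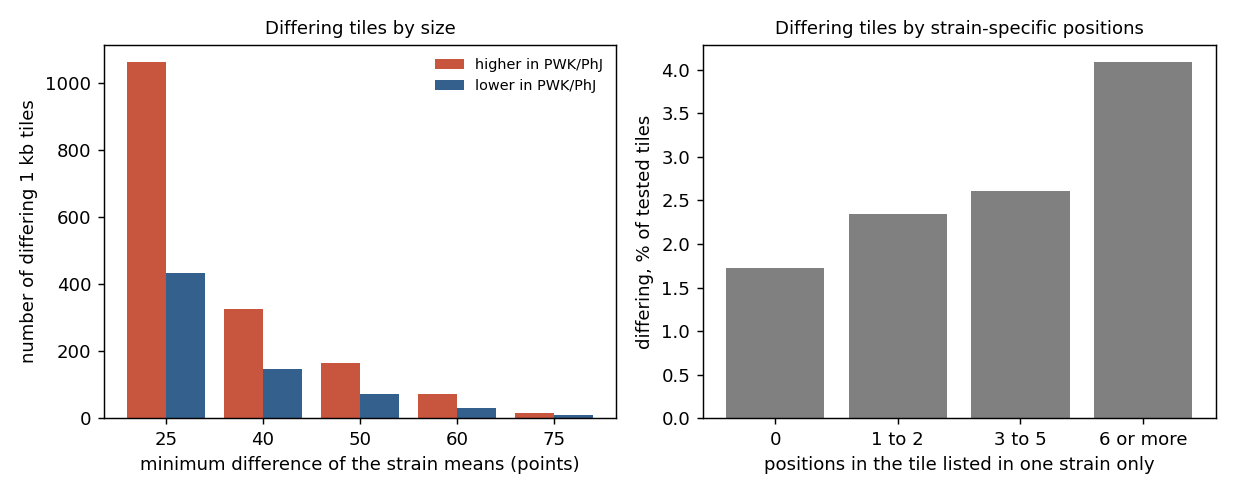
Left: number of called 1 kb tiles (y axis) whose strain means were at least the given number of percentage points apart (x axis), higher in PWK/PhJ (red) or lower (blue). Right: percent of tested tiles that were called (y axis) by the number of positions in the tile that all 3 samples of one strain and no sample of the other list (x axis). Higher tiles outnumber lower ones at each size, 1060 against 432 at 25 points, and the called share goes from 1.72% with no such position to 4.08% with 6 or more.

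Tiles made only of positions outside the set used to choose the pair were tested separately. They come from the same 6 samples, and nearby positions moved together, so they are not independent of the choice. Of 17923 such tiles, 326 (1.82%) were called, 201 higher (1.12%) and 125 lower (0.697%) in PWK/PhJ by limma with Benjamini-Hochberg adjustment. The called tiles were 61.7% higher ones, and 2909 tiles had an unadjusted p under 0.05. Leaving out a sample left 73 to 183 calls, the lowest without PWK/PhJ replicate 1, and 58.9 to 64.3% of them were higher. The count was 144 with an offset of 1 point in place of 5. Of the 326 tiles, 250 had no tile of positions in all 27 samples, and 53 lay in or next to a called one.

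The named tiles of this set had the largest differences in each direction. In a tile within Pi4k2a, a phosphatidylinositol kinase gene (chromosome 19, 42118001 to 42119000, 8 positions), the C57BL/6J samples were at 7.98, 3.37 and 8.13% and the PWK/PhJ samples at 91.6, 85.9 and 86.6%, and the difference passed limma's test (adjusted p = 0.00184). In Sorcs2, a sorting receptor gene (chromosome 5, 36169001 to 36170000, 6 positions), C57BL/6J was at 0.980, 9.92 and 2.56% and PWK/PhJ at 80.9, 84.9 and 80.2% (limma adjusted p = 0.00303). Tiles in Wdr91 and in the pseudogene Gm13771 rose by 79.5 and 81.5 points. The strains did not overlap in any called tile of this set. Among these 4 tiles the widest spread was in the C57BL/6J samples of Wdr91, at 30, 0 and 13.3%. The call at Wdr91 held in 2 of 6 analyses that each left out a sample, those without C57BL/6J replicate 1 or 2.

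The falls in this set included the one tile at the limits of the scale. A tile outside genes on chromosome 5 (30223001 to 30224000, 5 positions, 8581 bases from Selenoi) was at 100% in all 3 C57BL/6J samples and at 0% in all 3 PWK/PhJ samples. None of its positions was listed in all 27 samples. In Git1, which encodes a GTPase-activating scaffold protein (chromosome 11, 77505001 to 77506000, 5 positions), C57BL/6J was at 100% in every sample and PWK/PhJ at 22.5, 26.9 and 17.8% (limma adjusted p = 0.00105). In the lncRNA gene Gm35198 C57BL/6J was at 96.0 to 100% and PWK/PhJ at 16.7 to 25%. A tile in Mmd2 fell by 74.6 points and belongs to a longer run described below, and its call was lost without PWK/PhJ replicate 2 or 3.

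Single positions gave a less stable count than tiles. Of 961587 positions tested, 4869 (0.506%) were called, 2667 (0.277%) higher and 2202 (0.229%) lower in PWK/PhJ. At positions listed in all 27 samples 2521 (0.36%) were called, and 65.6% of these were higher. At the positions not used for the choice 2348 (0.896%) were called, and 43.1% of these were higher. The direction of the position calls depended on the fit. With an offset of 1 point 706 positions were called, 218 higher and 488 lower. Without any single sample 474 to 890 were called, of which 33.5 to 38.3% were higher. With the spread shared over all 27 samples, at positions listed in all 27, 14933 were called, 10940 higher and 3993 lower. All samples of one strain lay above all of the other, with means 25 points apart, at 46400 positions (4.83%), of which 69.3% were higher in PWK/PhJ. The positions called in the 6 samples were mostly those with large differences, with a median of 75.2 points. A switch from 0% in all samples of one strain to 100% in all of the other was called at 77 rises and 203 falls. Where the adjacent position was listed, it moved in the same direction by at least 25 points at 81.0% of called rises and 74.8% of called falls, against 5.71% of positions tested and not called. The adjacent position is often the other strand of the same CpG. The nearest listed position within 50 bases, adjacent ones included, moved likewise at 78.5% of called rises and 52.9% of called falls, against 6.08% of positions tested and not called. Within the set listed in all 27 samples these shares were 83.5% of rises and 68.5% of falls, and outside it 69.5% of rises and 42.8% of falls.

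Higher tiles outnumbered lower ones on each of the 19 autosomes. This held on 16 of 19 for tiles of positions not used for the choice. The called share was 2.24% over the autosomes together, 1.68 to 2.74% on single ones, and 60 to 78.7% of called tiles there were higher in PWK/PhJ. Among all tested tiles PWK/PhJ was the higher strain in 59.4 to 65.9% on each autosome. On the X chromosome 19 of 2062 tiles (0.921%) were called, 6 higher and 13 lower, and PWK/PhJ was the higher strain in 48.4% of tested tiles. Whether the direction on the X chromosome differs from that on autosomes was not tested.

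**Figure D2:**
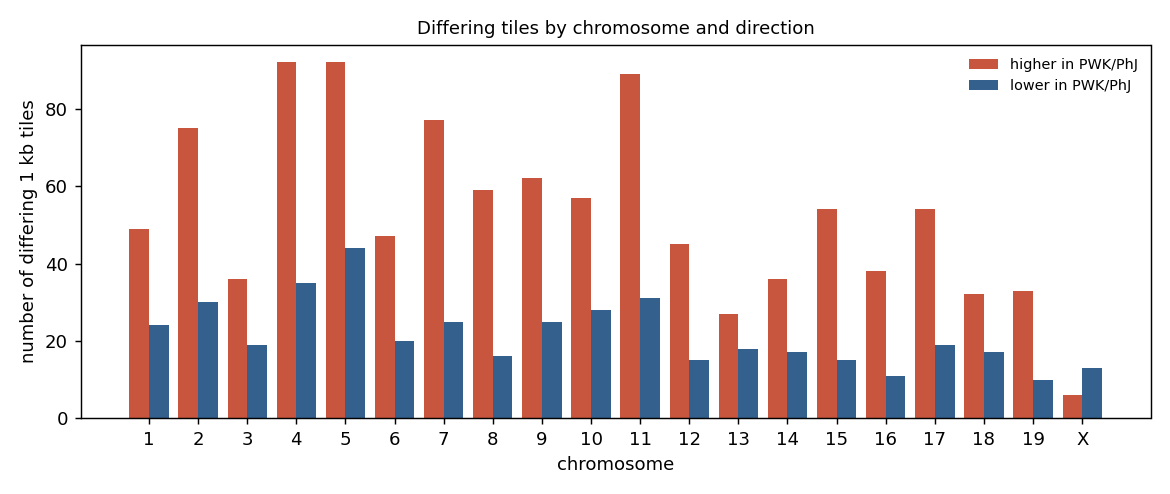
Number of called 1 kb tiles (y axis) on each autosome and the X chromosome (x axis), higher in PWK/PhJ (red) or lower (blue). Red bars are the taller ones on all 19 autosomes, and on the X chromosome 6 tiles were higher and 13 lower.

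Called tiles were counted by the number of measured positions, the place and the level of the tile, and differences between these classes were not tested. Of 8226 tested tiles with at least 20 positions 142 (1.73%) were called, and 122 of them (85.9%) were higher in PWK/PhJ. Of 41841 tested tiles with 5 to 9 positions 974 (2.33%) were called, and 67.9% were higher. For place, only starts of genes with a given strand were used, which 17492 of 21900 protein-coding genes had. Tiles near other starts therefore fall in the other classes. Called tiles within 1 kb of a used start were higher in 70.8%, and those elsewhere in protein-coding genes in 75.3%. Called tiles in other kinds of genes only were higher in 66.7% and those outside genes in 64.5%. The called share of tested tiles was 2.03% near used starts and 2.13% elsewhere in protein-coding genes. It was 2.48% in other kinds of genes only and 2.30% outside genes. By level, 999 rises and 390 falls were called among 15981 tested tiles with a mean of 20 to 80% (8.69% called). Below 20% the calls were 38 rises and 5 falls among 10393 tested tiles (0.414%). Above 80% the calls were 23 rises and 37 falls among 41475 tested tiles (0.145%). Of the rises, 30 tiles went from below 20% in C57BL/6J to above 80% in PWK/PhJ, 0.105% of all tiles below 20% in C57BL/6J. The opposite way went 14 tiles, 0.0330% of all tiles above 80% in C57BL/6J.

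Positions listed in one strain only were counted because strains differ in sequence, and a sequence difference can create or remove a CpG. All 3 C57BL/6J samples and no PWK/PhJ sample listed 309778 positions, and all 3 PWK/PhJ samples and no C57BL/6J sample listed 324903, which is 12.0% and 12.2% of the positions found in all samples of each strain. These positions were highly methylated, at 70.8% ± 0.212 in C57BL/6J and 69.5% ± 0.178 in PWK/PhJ (SD, n = 3). Within the RefSeq promoter sequences, which show the reference strain's bases, 99.9% of positions listed only in C57BL/6J and 67.0% of those listed only in PWK/PhJ fell on a CpG. Positions listed in all 6 samples fell on a reference CpG in 99.98%, and the 132 called ones among them did so in every case. When adjacent positions listed only in PWK/PhJ were taken as pairs, the reference bases were CG in 57.6%, TG in 12.4%, CA in 12.4% and another pair in 17.5%.

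Called tiles held positions listed in one strain only more often than other tested tiles, 55.7% against 43.2%. Tiles with such a position made up a larger share of called than of other tested tiles on all 19 autosomes. The called share was 1.72% among tiles without such a position, 2.35% with 1 to 2, 2.61% with 3 to 5 and 4.08% with 6 or more. Rises made up 73.7% of calls in tiles with none and 63.0% in tiles with 6 or more. Whether PWK/PhJ reads were aligned to the reference or to a genome of the strain is not given in the sources used here. The PWK/PhJ lists were not limited to CpGs of the reference: within the promoter sequences 4222 of 12797 positions listed only in PWK/PhJ (33.0%) lay off a reference CpG, against 15 of 10768 listed only in C57BL/6J. The part of sequence differences in the methylation calls was not tested, since no PWK/PhJ genome was used. Of the 661 called tiles without a position listed in one strain only, 487 were higher and 174 lower. Whether these tiles hold sequence differences was not tested, nor was why a position was listed in one strain only.

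The named tiles had the largest differences over all positions listed in all 6 samples. In Ubxn4, which encodes an endoplasmic reticulum protein of protein degradation (chromosome 1, 128246001 to 128247000, 6 positions), C57BL/6J was at 11.1, 8.38 and 13.1% and PWK/PhJ at 94.3, 95.8 and 97.1%. In Fam169b (chromosome 7, 68318001 to 68319000, 9 positions) C57BL/6J was at 10.5, 7.21 and 9.66% and PWK/PhJ at 92.4, 92.8 and 92.2%. In Ints14, a subunit of the Integrator complex that processes small nuclear RNAs, C57BL/6J was at 21.8, 6.40 and 6.22% and PWK/PhJ at 97.1, 90.7 and 95.9%. The samples of the 2 strains lay more than 60 points apart in each of these tiles. The other rises were in Hrob, Tada2a, Ldlrad3, the pseudogene Gm6578 and outside genes on chromosome 17, with differences of 83.2 to 94.6 points.

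Among the falls, Ptpn3 encodes a protein tyrosine phosphatase (chromosome 4, 57268001 to 57269000, 6 positions). Its C57BL/6J samples were at 84.1, 87.7 and 95.5% and its PWK/PhJ samples at 5.34, 5.78 and 5.26%. Ap3b1, a subunit of the adaptor complex that sorts proteins to lysosomes, had 92.4 to 97.7% in C57BL/6J and 13.2, 18.3 and 25.2% in PWK/PhJ. At positions listed in all 27 samples, levels of 81.8 to 93.4% in the Ptpn3 tile and 88.8 to 96.7% in the Ap3b1 tile were found in the other 7 strains. Ptprk, a receptor tyrosine phosphatase gene (chromosome 10, 28524001 to 28525000, 6 positions), had 88.3, 94.4 and 95.5% in C57BL/6J and 6.97, 6.68 and 9.05% in PWK/PhJ. In that tile DBA/2J and WSB/EiJ were also low, at 7.0 and 7.1%, and the other 5 strains were at 93.4 to 96.0%. A tile outside genes on chromosome 19 (40276001 to 40277000, 15 positions) was at 98.7% in C57BL/6J and 19.4% in PWK/PhJ. CAST/EiJ was near PWK/PhJ there, at 23.6%, and 6 strains had 91.7 to 95.9%. Larger falls lay outside genes on chromosome 7 (63802001 to 63803000) and chromosome 15 (31168001 to 31169000). The chromosome 7 tile was at 93.6% in C57BL/6J, 88.1% in A/J and 1.39% in PWK/PhJ, and the other strains had 0.889 to 5.04%. The chromosome 15 tile was at 89.8% in C57BL/6J, 2.20% in PWK/PhJ and 3.57% in 129S1/SvImJ, and the other strains had 82.0 to 95.7%.

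Runs of adjacent called tiles with the same direction were short. Of 1425 runs, 1365 were a single tile, 55 were 2 tiles long and 5 were longer. The 5 longest were picked once their values were known. The longest by positions covered Sfrp2, a secreted antagonist of Wnt signalling, over 4 tiles (chromosome 3, 83764001 to 83768000, 131 positions), where C57BL/6J was at 2.16, 2.54 and 2.85% and PWK/PhJ at 43.0, 44.8 and 46.9%. The window around the Sfrp2 start was at 1.26% ± 0.585 in C57BL/6J and 38.0% ± 1.78 in PWK/PhJ (SD, n = 3, 81 positions). A run of 3 tiles in Wnt5a, a Wnt ligand gene, went from 18.8% ± 2.24 to 47.4% ± 2.02 (SD, n = 3, 70 positions). A run in S1pr5, a sphingosine-1-phosphate receptor gene, went from 21.6% ± 4.73 to 54.6% ± 2.28 (SD, n = 3, 74 positions). In Ubtf, a transcription factor gene for ribosomal RNA, 4 tiles went from 35.7% ± 0.769 to 70.2% ± 1.09 (SD, n = 3, 55 positions). The run in Mmd2, a gene of the progestin and adipoQ receptor family, was lower in PWK/PhJ, with 82.2% ± 7.18 in C57BL/6J and 13.6% ± 4.74 in PWK/PhJ (SD, n = 3, 22 positions). As in every called tile, the samples of the 2 strains did not overlap in these 5 runs.

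Gene windows spanned 1 kb on each side of a gene start, or of a gene end where the strand was not given. Of 10553 windows tested, 200 (1.9%) were called. Of 5434 windows of protein-coding genes 72 (1.32%) were called, 57 higher (1.05%) and 15 lower (0.276%) in PWK/PhJ. Over all windows the median difference was 0.292 points. Leaving out a sample left 167 to 189 called windows, with 74.9 to 78.3% of them higher. Most windows were low in both strains: 15119 were below 20% in both, and 66 that were below 20% in C57BL/6J were called.

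The protein-coding windows with the 4 largest rises had means of 0.181 to 13.7% in C57BL/6J and 64.5 to 82.5% in PWK/PhJ. The Trim7 window held 8 positions from -81 to 158 bases relative to the start, and all 8 were at least 25 points higher in PWK/PhJ. The C57BL/6J samples were at 0, 2.78 and 1.56% and the PWK/PhJ samples at 67.7, 72.6 and 71.2%. None of its positions was listed in all 27 samples, and it passed limma's test (adjusted p = 0.000235). Zfp971, a zinc finger protein gene, had 23 positions within its first 469 bases, at 0.272, 0.272 and 0% in C57BL/6J and at 64.5, 65.5 and 63.6% in PWK/PhJ. The samples within each strain were close together, and 21 of the 23 positions were at least 25 points apart. Adm2, which encodes a peptide hormone related to adrenomedullin, went from 10, 17.9 and 13.3% to 82.7, 79.6 and 85.2%. Csnk1d, a casein kinase that sets the pace of the circadian clock, was measured at its lower-coordinate end, where 13 positions went from 6.00% ± 4.71 to 67.5% ± 1.97 (SD, n = 3).

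The other named rises were smaller. Omp, the olfactory marker protein gene, went from 10.7, 34.6 and 29.5% to 89.99, 87.8 and 78.0% at its higher-coordinate end, and Fut2, the fucosyltransferase of secreted blood group antigens, from 20.3% ± 8.14 to 71.2% ± 8.26 (SD, n = 3). Calml4, a calmodulin-like gene of the brush border, went from 21.1, 18.6 and 20.3% to 68.4, 66.9 and 71.7%, and Nipsnap3a from 27.6% ± 3.90 to 88.6% ± 4.24 (SD, n = 3). The zinc finger gene Zfp811 went from 11.6% ± 2.58 to 71.3% ± 12.6 (SD, n = 3). Gm51464, with no position listed in all 27 samples, went from 1.83% ± 0.781 to 58.5% ± 3.51 (SD, n = 3, limma adjusted p = 0.000235). Actl10, an actin-like gene, and Ankrd66, an ankyrin repeat gene, rose by 49.7 and 49.0 points. Fut2 was measured at its higher-coordinate end and Ankrd66 at its lower-coordinate end, with the strand not given.

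**Figure D3:**
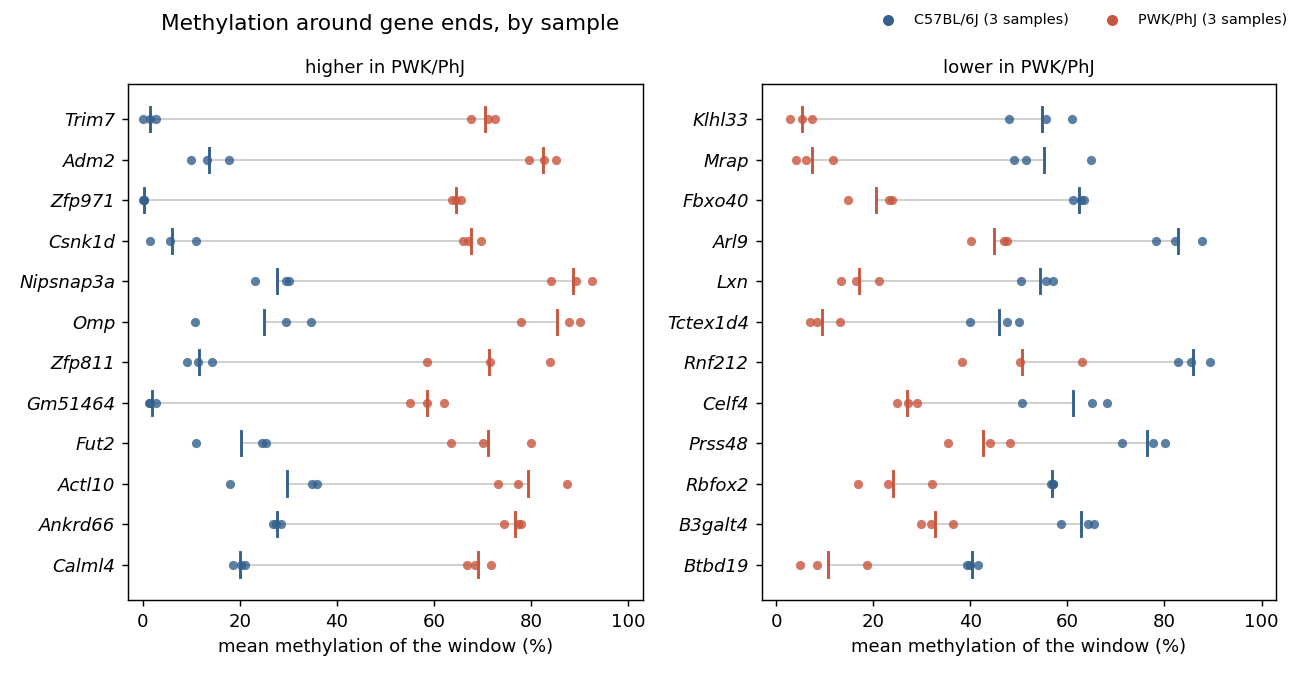
Mean methylation of the window (x axis, percent) in each sample for the 12 protein-coding windows with the largest rises (left) and falls (right) in PWK/PhJ, one gene per line. Points are samples, 3 per strain, C57BL/6J in blue and PWK/PhJ in red, and vertical ticks are strain means. Windows were named only where the strains did not overlap. The widest spreads are those of Omp in C57BL/6J and of Zfp811 and Rnf212 in PWK/PhJ.

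Mvk and Mmab, which share a start region on opposite strands, were examined after their values were seen, as they rank 15 among the rises. Mmab encodes the enzyme that makes adenosylcobalamin. The shared window held 58 positions, all below 20% in C57BL/6J, with 0.477, 1.02 and 0.431% in the C57BL/6J samples and 44.8, 44.1 and 46.8% in the PWK/PhJ samples. The rise covered 51 of the 58 positions, from -590 to 483 bases relative to the Mvk start. The level was intermediate in PWK/PhJ, with a single position above 80% and 7 below 20%. Among the latter were 2 adjacent positions at 168 and 169 bases after the start, at 0% in every sample of both strains, next to a position at 61.9% in PWK/PhJ. At the 42 positions listed in all 27 samples the other 7 strains were at 0.225 to 3.64%.

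The 12 protein-coding windows with the largest falls had means of 40.3 to 85.9% in C57BL/6J, and those of Arl9 and Rnf212 were above 80%. Klhl33, a kelch-like gene, went from 47.9, 55.5 and 60.9% in C57BL/6J to 7.37, 5.43 and 2.91% in PWK/PhJ, and its 11 differing positions lay 38 to 419 bases inside the gene. At Lxn 22 positions had 50.5, 55.6 and 57.03% in C57BL/6J and 21.2, 16.4 and 13.4% in PWK/PhJ, and the 15 differing ones lay at -232 to -35 bases relative to the start. The B3galt4 window held 65 positions and went from 62.8% ± 3.54 to 32.7% ± 3.31 (SD, n = 3). Mrap, the accessory protein of the corticotropin receptor, fell from 55.1% ± 8.44 to 7.38% ± 3.96, and Fbxo40, a muscle F-box gene, from 62.5% ± 1.21 to 20.6% ± 5.11 (SD, n = 3). Arl9, Celf4, Prss48 and Rbfox2 fell by 32.9 to 37.9 points. Mrap, Celf4, Prss48 and Rbfox2 were measured at the lower-coordinate end, with the strand not given. Tctex1d4 and Btbd19, whose windows overlap, fell by 36.3 and 29.6 points. Rnf212, needed for meiotic crossovers, fell from 85.9% ± 3.25 to 50.6% ± 12.3 (SD, n = 3). When each sample was left out in turn, the call at Btbd19 held in 2 of 6 analyses and that at Rnf212 in 3 of 6.

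**Figure D4:**
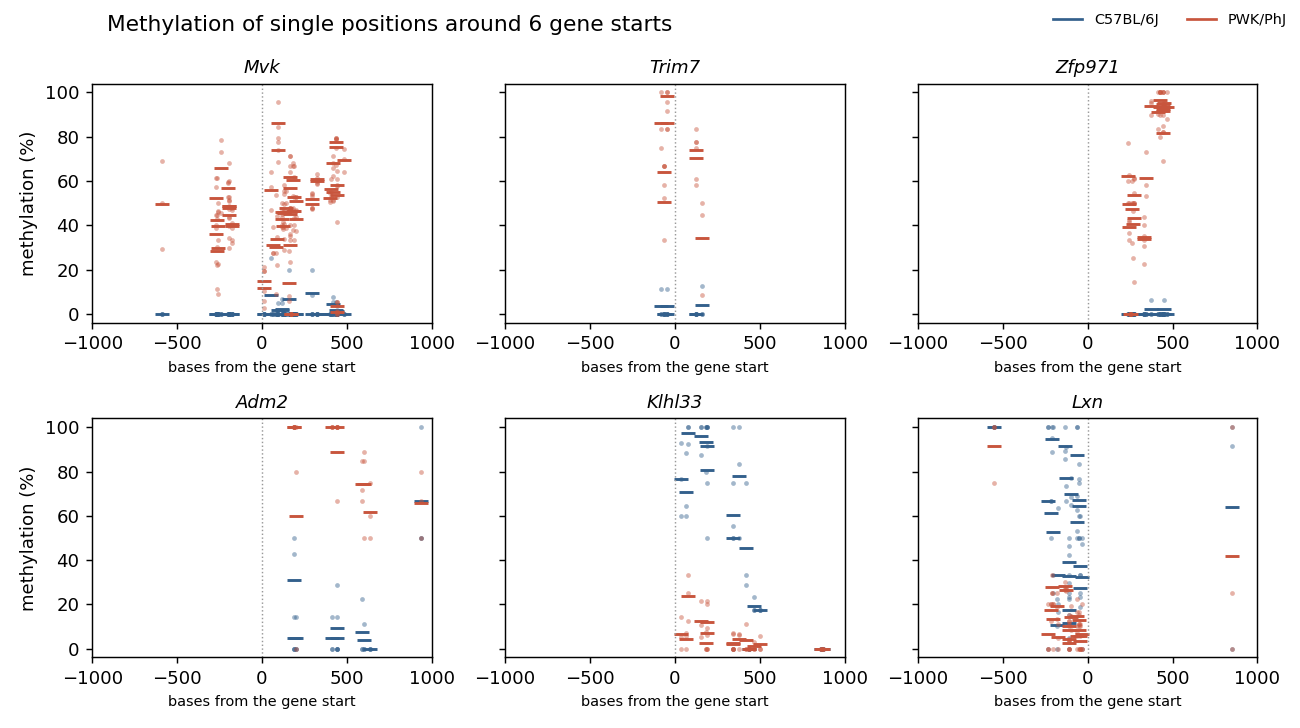
Methylation of single positions (y axis, percent) by distance in bases from the gene start (x axis, positive into the gene) for 6 genes, C57BL/6J in blue and PWK/PhJ in red. Points are samples and short bars are strain means. PWK/PhJ is higher at 51 of 58 positions in Mvk, 8 of 8 in Trim7, 21 of 23 in Zfp971 and 9 of 10 in Adm2 by at least 25 points, and lower at 11 of 16 in Klhl33 and 15 of 22 in Lxn.

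Another pair of called starts was picked once their values were known. Dmc1, the meiotic recombinase, went from 18.4, 12.7 and 4.53% in C57BL/6J to 61.2, 36.7 and 54.5% in PWK/PhJ. Iho1, which acts in the formation of meiotic DNA breaks, went from 57.3% ± 8.99 to 94.4% ± 2.48 (SD, n = 3). As at every called window, the strains did not overlap at either start, and the samples of Dmc1 were spread widely within both strains. The called window of Rnf212, also a meiotic gene, went the other way, from 85.9% to 50.6%. On the list of germline genes 0 of 14 tested windows were called.

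The liver, clock, histocompatibility, DNA methylation and marker lists held 149 gene windows, of which 54 could be tested and 0 were called. With 1.9% of all tested windows called, 0 of 54 is near the background. Of the 16 windows of nuclear receptors of liver metabolism 15 were below 20% in both strains, as were 14 of 17 windows of hepatocyte transcription factors, 12 of 12 of glucose and glycogen metabolism and 16 of 16 of the circadian clock. The median difference was 0.272 points for the hepatocyte transcription factors, 0.212 for fatty acid and cholesterol metabolism and 0.244 for drug metabolism, beside 0.292 over all windows. PWK/PhJ was the higher strain in 68.3% of all windows tested, and an unadjusted p under 0.05 was reached by 27.9% of them. On the lists it was reached by 3 of 5 tested windows of hepatocyte transcription factors, 2 of these higher in PWK/PhJ. It was reached by 2 of 6 windows of fatty acid and cholesterol metabolism and 6 of 8 of drug metabolism, all higher. At the 6 windows of drug metabolism with such a p the differences ran from 1.95 points at Cyp2s1 to 15.2 at Cyp17a1. Such a p was also reached by 1 of 4 of nuclear receptors and 1 of 5 of glucose and glycogen metabolism. The counts were 0 of 1 for the circadian clock and 3 of 8 for the major histocompatibility region. Of the genes that write, erase or read DNA methylation, 13 of 16 windows were below 20% in both strains and 1 of 4 tested windows had such a p.

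Differences on these lists ran from -12.8 to 20.4 points, below the 25-point limit. The windows below are examples and not the top of a ranking. Hnf4a, the nuclear receptor that maintains hepatocyte identity, was at 9.16, 9.03 and 7.58% in C57BL/6J and 21.4, 27.5 and 17.8% in PWK/PhJ. Nr1i2, the pregnane X receptor that senses drugs, was at 0, 3.64 and 0% and at 20, 30 and 14%. The windows held only 8 positions at Hnf4a and 5 at Nr1i2, and the PWK/PhJ means were 22.2% at Hnf4a and 21.3% at Nr1i2. Apob, the protein of very low density lipoprotein, was at 10.4% ± 3.60 and 21.7% ± 3.83, and Cpt1a, the enzyme of fatty acid entry into mitochondria, at 4.92% ± 1.27 and 13.6% ± 2.34 (SD, n = 3). Cyp17a1, a steroid hydroxylase measured at its lower-coordinate end with the strand not given, was at 55.0% ± 4.78 and 70.2% ± 6.72 (SD, n = 3). Notch4, in the major histocompatibility region, was at 41.6% ± 1.39 and 62.0% ± 3.61 (SD, n = 3). Lower in PWK/PhJ were the means of Foxa1, at 19.2% ± 4.24 and 12.0% ± 0.679, and Gata4, at 71.6% ± 0.710 and 65.6% ± 5.34 (SD, n = 3). Gata4 was measured at its higher-coordinate end, with the strand not given, and did not reach an unadjusted p under 0.05 by limma. Its PWK/PhJ replicate 2, at 70.8%, lay close to the lowest C57BL/6J sample, at 70.9%.

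Imprinted and germline genes also gave no call, with an unadjusted p under 0.05 in 3 of 26 and 3 of 14 tested windows, against 27.9% of all windows tested. Over 32 windows of imprinted genes the median level was 35.4% in C57BL/6J and 35.6% in PWK/PhJ. Mest, expressed from the paternal copy, had the largest difference of these lists, with 37.5, 23.6 and 53.1% in C57BL/6J and 60.9, 69.3 and 81.3% in PWK/PhJ. The spread of Mest within a strain was wide, at 14.8 points (SD) in C57BL/6J and 10.2 in PWK/PhJ. The window shared by Peg10 and Sgce was at 52.1% ± 9.71 and 38.5% ± 10.8, and that of Nap1l5 at 71.5% ± 3.28 and 55.2% ± 3.60 (SD, n = 3). Of 15 windows of germline genes 9 were above 80% in both strains, and 1, that of Zpbp2, was below 20% in both. Dazl was intermediate, at 44.7% ± 0.833 in C57BL/6J and 43.1% ± 0.730 in PWK/PhJ (SD, n = 3). Ddx4, an RNA helicase of germ cells, was at 71.2% ± 3.29 and 84.9% ± 3.10 (SD, n = 3).

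The label of the cells was checked on the windows of marker genes. Of 5 hepatocyte marker windows 3 were below 20% in both strains, as were 3 of 5 cholangiocyte and 3 of 5 stellate windows, so that these markers did not set hepatocytes apart from those types. The macrophage window and both lymphocyte windows were above 80% in both strains. The differences were -2.39 to 13.7 points at the hepatocyte windows and 0.502 to 8.16 at the 5 cholangiocyte windows. They were -7.78 to 2.37 at the lymphocyte windows, -2.98 at the macrophage window and -2.49 to 3.59 at the stellate windows. An unadjusted p under 0.05 was reached at 3 of 4 tested hepatocyte windows, against 27.9% of all windows tested. It was reached at 1 of 4 cholangiocyte, 1 of 2 lymphocyte, 0 of 1 macrophage, 1 of 1 endothelial and 1 of 4 stellate windows. Tek, an endothelial receptor, was at 75.3% ± 2.90 in C57BL/6J and 62.5% ± 1.12 in PWK/PhJ (SD, n = 3), and the other endothelial window was below 20% in both strains. The part of other cell types in the strain differences was not tested.

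The other 7 strains were placed between C57BL/6J and PWK/PhJ at the 928 called tiles that also had at least 5 positions listed in all 27 samples. CAST/EiJ and WSB/EiJ, like PWK/PhJ, are derived from wild mice. CAST/EiJ was nearer PWK/PhJ at 51.3% of the tiles, WSB/EiJ at 23.8%, A/J at 30.2% and the remaining 4 at 18.6 to 22.6%. In 265 tiles (28.6%) all 7 were nearer C57BL/6J, in 19 (2.05%) all were nearer PWK/PhJ, and in 644 the strains were split. At the 695 higher tiles the median level was 28.7% in C57BL/6J, 35.1 to 44.2% in the 6 strains other than CAST/EiJ, 51.7% in CAST/EiJ and 70.2% in PWK/PhJ. At the 233 lower tiles it was 78.5% in C57BL/6J, 60.7% in CAST/EiJ and 34.4% in PWK/PhJ. The tiles were chosen for the distance between C57BL/6J and PWK/PhJ, so that other strains tend to fall between them.

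The named windows differed in which strains stood with PWK/PhJ. PWK/PhJ stood alone at Zfp811, where the others had 2.96 to 9.69%, and at Rbfox2, a splicing factor gene, where PWK/PhJ had 24.0% and the others 53.8 to 59.5%. At Klhl33 C57BL/6J was at 67.4% and CAST/EiJ at 46.6%, and the other 6 strains were at 4.03 to 10.4%, as PWK/PhJ was. At Arl9 C57BL/6J had 78.7% and A/J 83.1%, and the levels elsewhere were 7.32 to 30.2%. At Zfp971 PWK/PhJ was at 77.3%, CAST/EiJ at 23.5% and the others at 0.0833 to 4.42%.

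**Figure D5:**
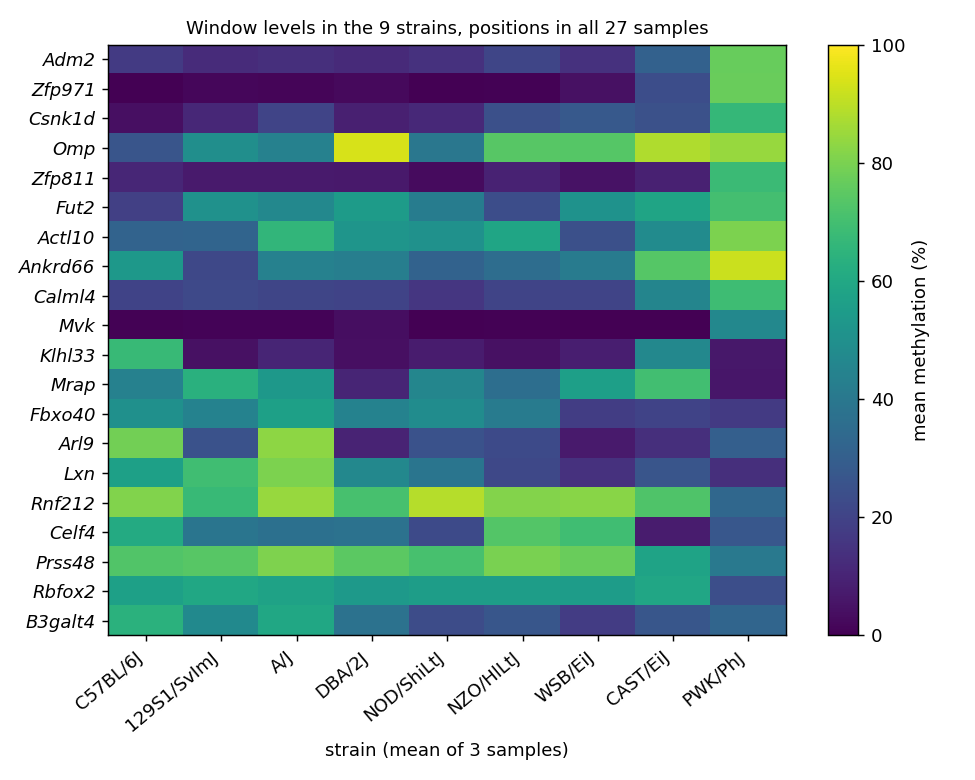
Mean methylation (colour, percent) of named gene windows (rows) in the 9 strains (columns), over positions listed in all 27 samples, each cell a mean of 3 samples, for windows with at least 4 such positions. PWK/PhJ stands alone at Mvk, Zfp811 and Rbfox2, and C57BL/6J is high together with CAST/EiJ at Klhl33 and with A/J at Arl9.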

How the data were processed

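Per the file headers, the authors deposited for each sample a list of positions with a percent methylation. Trim Galore 0.6.3, Bowtie2, Bismark 0.22 and the builds GRCm38 and mm10 are named in the submitters' processing notes. Coverage was not used because the files hold none, so the planned model on read counts was replaced by limma's moderated test with 4 residual degrees of freedom. Strands of a CpG were kept apart. Features with a mean of 2.5 to 97.5% were tested, and p-values were adjusted over all positions, all tiles or all gene windows. The test was computed in Python 3.11.15 (numpy 2.4.6, pandas 2.3.3, scipy 1.17.1) and checked against limma 3.58.1 in R 4.3.3, with 0 features on different sides of the threshold, and tested on simulated data. Figures were drawn with matplotlib 3.10.9. Gene names come from RefSeq, assembly GRCm38.p6.

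The members, gene lists and rules were chosen with earlier results of these data known. Named were the 8 largest called rises and 8 largest falls among tiles, 12 and 12 among protein-coding windows and 4 and 4 among tiles of unused positions. Tiles over all positions and windows were named only where the samples did not overlap between strains. Replicates 1 and 2 share numbers across strains, but the labels do not say that a number marks a shared animal, litter or day.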

Additional observations from a re-analysis of the deposited data

Results flagged for a closer look

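Positions on the Y chromosome have no comparison of their own above, and the mice are labelled female. The C57BL/6J samples listed 915 ± 75.2 such positions and the PWK/PhJ samples 1619 ± 65.5 (SD, n = 3), with no overlap (exact two-sided permutation test, p = 0.1, the smallest possible). They were singled out because signal appeared on a chromosome that female mice do not carry. The counts over all positions and tiles above include 230 tested positions on the Y chromosome, of which 5 were called, all lower in PWK/PhJ, and 17 tested tiles, of which 0 were called. The cause was not tested. Groups of 3 samples are too small to single out a sample by its gap to the others.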

How the results depend on the processing

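With an offset of 1 point, 706 positions, 454 positions not in all 27 samples and 144 tiles of such positions were called. The untransformed percent gave 9650 positions, a spread shared over all 27 samples 14933, and no overlap with 25 points and no p 46400. Called tiles numbered 3242 at a 10-point limit, 237 at 50 points, 3510 by adjusted p alone and 542 with at least 10 positions each, and called windows 663, 34 and 1037 under the first 3 of these. The cause was not tested for the offset, the scale and the shared spread, and the other settings themselves change the limit or the number of features. With the tile and window settings, higher tiles were 65.8 to 77.7% of calls and higher windows 74.9 to 85.3%. Leaving out a sample gave 474 to 890 positions, 374 to 628 positions not in all 27 samples, 920 to 1284 tiles, 73 to 183 tiles of unused positions and 167 to 189 windows, with 3 residual degrees of freedom.

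With the replicate block, 0 positions, 0 tiles and 0 windows were called by limma, with 1 residual degree of freedom; an unadjusted p under 0.05 was reached by 89219, 9687 and 1950. The block also gave 0 calls in the positions and tiles outside the set of 27 samples. Samples of the same number did not deviate together over tested tiles (r = -0.0124 for number 1 and 0.00617 for number 2), and only 2 numbers are shared.

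The mean level difference reversed on the X chromosome, to -0.384 points, and was 1.10 to 1.23 without a sample. With limits of 10 and 90%, 177768 positions moved to a higher class in PWK/PhJ and 121011 to a lower one, so rises still outnumbered falls. At positions in all 27 samples 78804 moved up and 41935 down. Without a sample the counts were 121806 to 137051 and 73657 to 80881 for these classes, and 334188 to 364919 and 342096 to 365601 for positions listed in C57BL/6J only and in PWK/PhJ only. Of 50 calls at named tiles and windows, 46 held without any single sample. The others were Wdr91 (highest adjusted p = 0.0736, limma), Mmd2 (0.0596), Rnf212 and Btbd19, and Wdr91 was also lost with an offset of 1 point (adjusted p = 0.0686, limma). The no-overlap rule for tiles, the mean on the X chromosome and the alternatives for positions and tiles outside the set of 27 samples were chosen after seeing the data.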
